A study of Homo sapiens with 9 samples.

Results

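Homologous recombination repairs DNA double-strand breaks by copying an intact sister chromatid, and it acts in S and G2 phase. Broken ends are sensed by the kinase ATM, and single-stranded DNA at stalled forks by the kinase ATR. BRCA1, as a heterodimer with BARD1, promotes the step to recombination, PALB2 bridges BRCA1 and BRCA2, and BRCA2 acts on the resected single-stranded DNA that invades the sister chromatid. RAD51C is a subunit of complexes that assist strand exchange, and FANCD2 and FANCI form the complex that is monoubiquitinated at interstrand crosslinks in the Fanconi anemia pathway. The expression of these 9 genes, BRCA1, BRCA2, PALB2, RAD51C, BARD1, FANCD2, FANCI, ATM and ATR, was examined in cells with acquired cetuximab resistance. They were taken by symbol from the 58920 genes listed. All 9 were among the 19102 genes that were tested, each with 10 or more counts summed over the libraries.

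LIM1215 is a human colorectal cancer (CRC) cell line that is wild-type for RAS and responds to cetuximab, an antibody against the epidermal growth factor receptor. Poly(A) RNA was sequenced from parental cells (LIM1215-parental, labeled Parental) and from 2 resistant populations (LIM1215-R1 and LIM1215-R2, labeled Resistant_1 and Resistant_2), with 3 libraries per line. Each resistant line came from its own selection of LIM1215 cells with stepwise more cetuximab, while the control cells were grown alongside without it. All 3 lines were grown in RPMI with fetal bovine serum and penicillin-streptomycin and were untreated when RNA was taken. The resistant lines are mixed populations and not clones. HRAS mutations were found in a part of their cells, with a different mutation in each line. After selection they were maintained with cetuximab, and how long it had been withdrawn when RNA was taken is not stated. The study calls the 3 libraries of a line technical replicates. Hence the p-values given here describe the spread between libraries, and a difference between lines cannot be told apart from a difference between cultures or harvests. In bulk RNA, fewer expressing cells and less RNA per cell cannot be told apart either.

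The libraries held 13737400 to 18725000 counts, rounded to 6 digits, with the lowest and the highest total both in parental cells. The 9 genes together took 0.0648% ± 0.00366 (SD, n = 3) of the counts in parental cells, 0.0594% ± 0.00288 (LIM1215-R1) and 0.0698% ± 0.00177 (LIM1215-R2). Of 10 markers of colorectal epithelium, 9 reached a CPM (counts scaled to a common library size of 1000000) of 1 in each line, and KRT20 was at 0 in every library. The leukocyte markers PTPRC and CD3E were at 0 in every library, and the summed CPM of fibroblast markers stayed between 1.19 and 3.19.

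Per kilobase of transcript, FANCI was the highest of the 9 genes in all lines, with 37.0 CPM per kilobase ± 1.63 (SD, n = 3) in parental cells. BRCA1 was second with 16.4 ± 1.14 and FANCD2 the third with 11.6 ± 0.602. ATR (9.44 ± 0.546), BARD1 (9.43 ± 0.459), PALB2 (8.84 ± 0.244) and RAD51C (8.58 ± 0.206) followed in parental cells. Over the 3 libraries ATR overlapped BARD1 and PALB2 overlapped RAD51C, while BARD1 and PALB2 did not overlap. BRCA2 was at 5.58 ± 0.362 CPM per kilobase and ATM was the lowest at 2.89 ± 0.532. Neither range overlapped that of a neighbor in the order. The ratio of the highest to the lowest level per kilobase was 12.8. In the resistant lines, RAD51C stood above PALB2 and BARD1 without overlap, at 10.6 ± 0.517 (LIM1215-R1) and 10.9 ± 0.422 (LIM1215-R2), and there BARD1 was next above BRCA2. Among 16478 genes with a known length, FANCI ranked at percentile 87.9 and ATM at percentile 41.2 in parental cells. Lengths were those of 1 transcript per gene. With all annotated exons merged, BARD1 became the third and ATR and RAD51C fell below BRCA2, so the order of the genes in the middle depends on the length used.

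Promoter sequences (RefSeq, GRCh38.p14, 250 bases before to 50 bases after the annotated start) were given for 8 of the 9 genes. The promoters of BRCA1, BRCA2, ATM and ATR are shown because these 4 genes were higher in LIM1215-R2 than LIM1215-R1, and that of RAD51C because it rose in both resistant lines. They lie at chr17:43125315-43125614 (BRCA1, minus strand), chr13:32315258-32315557 (BRCA2, plus strand), chr11:108222817-108223116 (ATM, plus strand), chr3:142578684-142578983 (ATR, minus strand) and chr17:58692352-58692651 (RAD51C, plus strand). Each is written 5′ to 3′ on the strand of its gene, and capitals mark CCAAT (the NF-Y box) and TGACGT (the core of the cAMP response element, CRE) on either strand.
BRCA1 promoter: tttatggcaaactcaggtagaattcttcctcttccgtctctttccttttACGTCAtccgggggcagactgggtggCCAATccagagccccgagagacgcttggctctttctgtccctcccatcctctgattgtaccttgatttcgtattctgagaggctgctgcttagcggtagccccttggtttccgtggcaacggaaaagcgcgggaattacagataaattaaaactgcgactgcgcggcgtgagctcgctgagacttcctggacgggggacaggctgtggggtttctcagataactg
BRCA2 promoter: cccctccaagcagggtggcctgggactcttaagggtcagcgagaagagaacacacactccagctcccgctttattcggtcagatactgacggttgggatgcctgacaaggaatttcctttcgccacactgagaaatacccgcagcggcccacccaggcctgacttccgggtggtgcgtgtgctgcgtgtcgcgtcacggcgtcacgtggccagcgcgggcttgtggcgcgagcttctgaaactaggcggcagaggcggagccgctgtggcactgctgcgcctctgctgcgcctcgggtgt
ATM promoter: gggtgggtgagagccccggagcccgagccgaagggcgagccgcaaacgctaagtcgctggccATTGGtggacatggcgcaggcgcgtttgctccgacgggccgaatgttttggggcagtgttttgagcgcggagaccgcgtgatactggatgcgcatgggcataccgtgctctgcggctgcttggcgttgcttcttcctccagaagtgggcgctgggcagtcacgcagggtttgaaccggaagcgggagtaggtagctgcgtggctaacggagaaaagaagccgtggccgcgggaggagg
ATR promoter: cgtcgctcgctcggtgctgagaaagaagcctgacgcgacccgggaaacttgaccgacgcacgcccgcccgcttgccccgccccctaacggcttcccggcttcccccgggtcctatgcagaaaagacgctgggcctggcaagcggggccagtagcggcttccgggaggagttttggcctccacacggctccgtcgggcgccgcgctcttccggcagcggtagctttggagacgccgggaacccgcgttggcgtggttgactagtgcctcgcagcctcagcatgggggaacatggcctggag
RAD51C promoter: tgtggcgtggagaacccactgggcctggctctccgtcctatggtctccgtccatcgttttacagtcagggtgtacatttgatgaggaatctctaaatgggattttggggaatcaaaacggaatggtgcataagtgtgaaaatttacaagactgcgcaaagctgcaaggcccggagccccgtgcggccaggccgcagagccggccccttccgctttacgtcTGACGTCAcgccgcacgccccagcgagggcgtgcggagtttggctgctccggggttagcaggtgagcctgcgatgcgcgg

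The 4 promoters did not share a motif that was searched. Those of BRCA1 and ATM held the NF-Y box CCAAT, as did that of PALB2, and 36.4% of 15843 protein-coding promoters of the same length held it. The CRE core TGACGT was found in the promoters of BRCA1, RAD51C and FANCD2 and in 9.76% of all promoters. In RAD51C the 2 strands gave overlapping matches in a palindrome that begins 30 bases before the start. The E2F motifs, spelled TTTCCCGC, TTTGGCGC and TTTCGCGC, had 1 match among the 8 genes, in FANCD2, against 3.83% of all promoters. The SP1 motif GGGCGG was in BARD1, FANCD2 and ATR (61% of all promoters), the CHR motif TTTGAA in ATM only (11.7%), and the NRF1 motif GCGCATGC in none of the 8 (4.39%). A match is a description of letters and not evidence of binding, and none of the spelled motifs contains another.

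In LIM1215-R1, 4 of the 9 genes passed an adjusted p of 0.01 against parental cells (edgeR's quasi-likelihood test, Benjamini-Hochberg adjustment over the 19102 genes). BRCA1, BRCA2 and BARD1 fell by 22.8%, 20.7% and 15.6%, and RAD51C rose by 23.4%. Over all genes tested, 27.3% passed, with 14% higher and 13.4% lower. The median log2 fold change of the 9 genes was -0.09 and that of all genes tested -0.01. In LIM1215-R2, 3 of the 9 genes passed and all were higher than in parental cells, namely RAD51C by 26.7%, ATR by 21.6% and FANCI by 16.8%. The share of all genes that passed was 23.8%, with 12.3% higher and 11.6% lower, and the median of the 9 genes was 0.16. The absolute log2 fold changes of the 9 genes were at most 0.37 (LIM1215-R1) and 0.34 (LIM1215-R2), so 0 of 9 reached 1.5, the limit used by the study. Of all genes, 5.14% passed it together with the adjusted p in LIM1215-R1, and 4.82% did so for LIM1215-R2. Among the 6135 genes with a mean count in the range of the 9 genes, 39.8% passed the adjusted p against parental cells in LIM1215-R1, and in LIM1215-R2 33.3% did. The counts of 4 and 3 of 9 are therefore not far from what genes of like abundance gave. Both comparisons share the parental libraries.

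**Figure D1:**
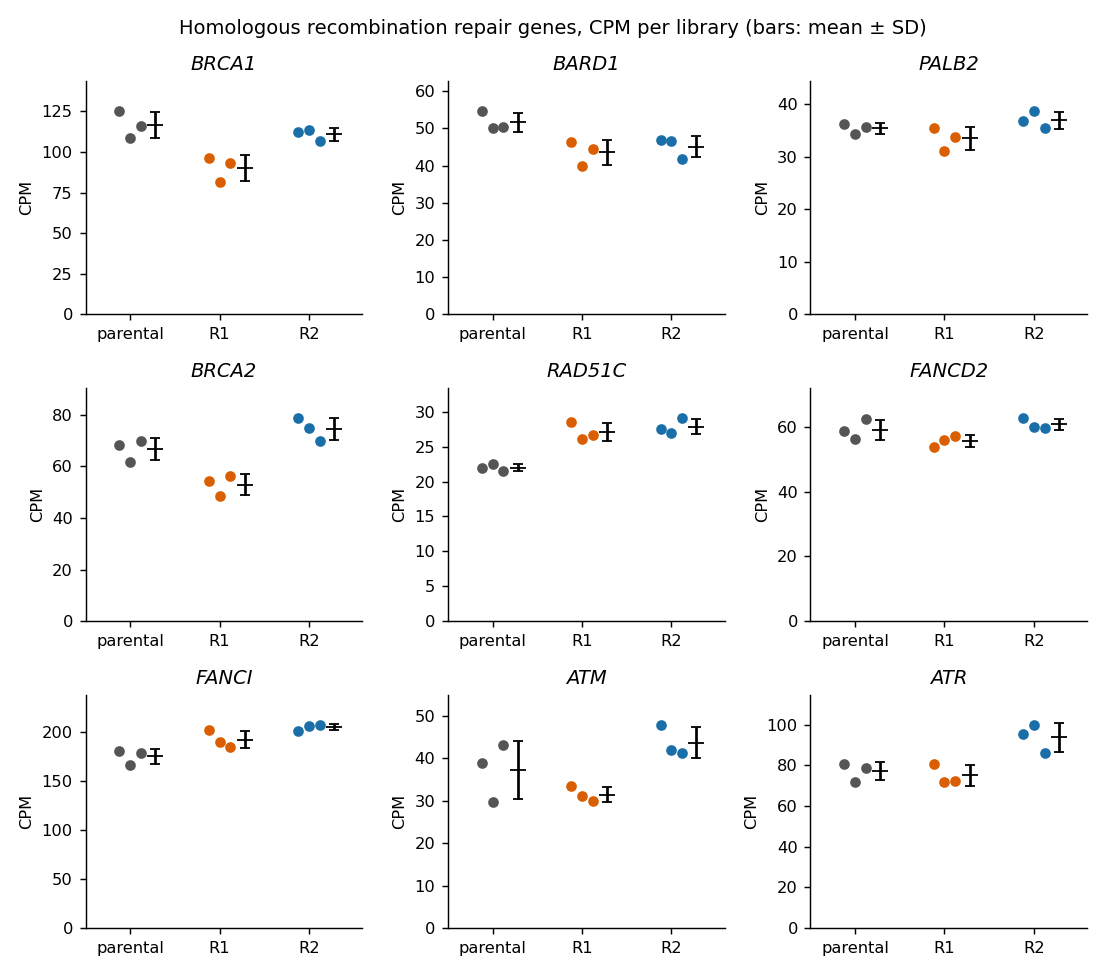
CPM of each gene in every library, with 1 point per library for parental cells (gray), LIM1215-R1 (orange) and LIM1215-R2 (blue) and bars for mean ± SD (n = 3). RAD51C sits above the parental range in all 6 resistant libraries, while BRCA1 and BRCA2 are lowest in the 3 libraries of LIM1215-R1.

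BRCA1, the ubiquitin ligase subunit that promotes end resection, was at 124.9, 108.7 and 116.1 CPM in the 3 parental libraries. It was at 96.1, 81.3 and 92.9 CPM in LIM1215-R1, and at 112.6, 113.4 and 106.5 CPM in LIM1215-R2. All 3 libraries of LIM1215-R1 were below all others, and LIM1215-R2 overlapped parental cells. The log2 fold change against parental cells was -0.37 (SE 0.0619, adjusted p = 2.09e-05) in LIM1215-R1 and -0.07 (95% interval -0.20 to 0.05, adjusted p = 0.402) in LIM1215-R2. The call in LIM1215-R1 was kept in all 9 fits that left out 1 library. A BRCA1 pseudogene, BRCA1P1, had 26 to 63 counts per library, against 1296 to 2211 for BRCA1, and whether reads were split between them was not tested.

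BARD1, the partner that stabilizes BRCA1, was at 54.5, 49.99 and 50.4 CPM in parental cells. It was at 46.4, 39.9 and 44.4 CPM in LIM1215-R1, and at 46.9, 46.5 and 41.9 CPM in LIM1215-R2. Both resistant lines were below parental cells without overlap and overlapped each other. The log2 fold change was -0.24 (SE 0.0695, adjusted p = 0.00647) in LIM1215-R1 and -0.20 (95% interval -0.34 to -0.05, adjusted p = 0.031) in LIM1215-R2, where it missed the threshold. The call in LIM1215-R1 was lost in 5 of the 9 fits without 1 library, those without parental replicates 1 or 3, LIM1215-R1 replicates 2 or 3 or LIM1215-R2 replicate 2, with an adjusted p of up to 0.0484. It was also lost by the Wald test of DESeq2 (adjusted p = 0.0121), and when trends on GC content and length were removed (-0.09, adjusted p = 0.211).

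PALB2, the link between BRCA1 and BRCA2, was at 36.2, 34.3 and 35.8 CPM in parental cells, at 35.6, 31.1 and 33.9 CPM in LIM1215-R1 and at 36.7, 38.7 and 35.5 CPM in LIM1215-R2. The 3 lines overlapped. The log2 fold change was -0.08 (95% interval -0.23 to 0.07) in LIM1215-R1 and 0.06 (95% interval -0.09 to 0.21) in LIM1215-R2, with adjusted p = 0.424 and 0.583.

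BRCA2, the mediator that acts on resected ends, was at 68.5, 61.8 and 69.9 CPM in parental cells. It was at 54.2, 48.6 and 56.2 CPM in LIM1215-R1, and at 78.7, 74.8 and 70.0 CPM in LIM1215-R2. The 3 lines did not overlap, with LIM1215-R1 the lowest and LIM1215-R2 the highest, although the nearest libraries of LIM1215-R2 and parental cells were almost equal. The log2 fold change was -0.33 (SE 0.0670, adjusted p = 0.00022) in LIM1215-R1, and 0.16 (SE 0.0653, adjusted p = 0.0681) in LIM1215-R2, which did not pass. The fall in LIM1215-R1 was kept in all 9 fits without 1 library but lost when trends on GC content and length were removed (-0.11, adjusted p = 0.085).

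RAD51C, which assists strand exchange, was at 22.0, 22.5 and 21.5 CPM in parental cells. It was at 28.6, 26.05 and 26.7 CPM in LIM1215-R1, and at 27.5, 27.0 and 29.1 CPM in LIM1215-R2. All 6 resistant libraries were above all parental libraries. RAD51C was the only one of the 9 genes that passed in both resistant lines. FANCI did too once trends on GC content and length were removed, as did ATR when the replicate number was also a block. The log2 fold changes of RAD51C were 0.30 (SE 0.0771, adjusted p = 0.00255) and 0.34 (SE 0.0769, adjusted p = 0.000877). The call in LIM1215-R2 was kept in all 9 fits without 1 library. That in LIM1215-R1 was lost without parental replicate 3 (0.0159) or LIM1215-R1 replicate 1 (0.0163).

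FANCD2, which is monoubiquitinated together with FANCI, was at 58.8, 56.1 and 62.2 CPM in parental cells, at 53.6, 55.8 and 57.2 CPM in LIM1215-R1 and at 62.6, 59.8 and 59.7 CPM in LIM1215-R2. Both resistant lines overlapped parental cells and neither difference passed, with log2 fold changes of -0.09 (95% interval -0.22 to 0.03, adjusted p = 0.267) and 0.04 (95% interval -0.09 to 0.16, adjusted p = 0.70). The pseudogene FANCD2P1 had 6 to 22 counts per library. FANCI was at 180.6, 166.2 and 178.4 CPM in parental cells. It was at 201.5, 189.7 and 184.8 CPM in LIM1215-R1, and at 201.1, 206.1 and 206.8 CPM in LIM1215-R2. All resistant libraries were above all parental libraries. The log2 fold change was 0.22 (SE 0.0480, adjusted p = 0.000517) in LIM1215-R2, a call kept in all 9 fits without 1 library, and 0.13 (SE 0.0481, adjusted p = 0.0318) in LIM1215-R1, which missed the threshold.

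ATM, the kinase activated by double-strand breaks, was at 38.8, 29.8 and 43.2 CPM in parental cells. It was at 33.4, 31.1 and 29.8 CPM in LIM1215-R1, and at 47.9, 41.9 and 41.3 CPM in LIM1215-R2. Parental replicate 2 was as low as the lowest library of LIM1215-R1 and parental replicate 3 within LIM1215-R2, so parental cells overlapped both lines, and neither difference from them passed (log2 fold change -0.26, SE 0.0960, adjusted p = 0.038 in LIM1215-R1, and 0.22, SE 0.0930, adjusted p = 0.074 in LIM1215-R2). Without parental replicate 2 the fall in LIM1215-R1 passed (-0.38, adjusted p = 0.000248), and without parental replicate 3 the rise in LIM1215-R2 passed (0.34, adjusted p = 0.0086). ATR, the kinase activated at single-stranded DNA, was at 80.4, 72.0 and 78.6 CPM in parental cells. It was at 80.8, 72.0 and 72.1 CPM in LIM1215-R1, and at 95.3, 99.8 and 86.1 CPM in LIM1215-R2. LIM1215-R2 was above the other lines without overlap. Its log2 fold change was 0.28 (SE 0.0636, adjusted p = 0.000884), a call lost without LIM1215-R2 replicate 2 (0.24, adjusted p = 0.0164), while LIM1215-R1 did not differ beyond the spread between libraries (-0.04, 95% interval -0.17 to 0.09).

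The contrast between the resistant lines tests whether their changes from parental cells differed. Here 4 of the 9 genes passed and all were higher in LIM1215-R2, namely BRCA2, ATM, ATR and BRCA1, against 7.16% of all genes that passed, 3.39% that passed as higher and 3.77% as lower. Among the 6135 genes of like abundance, 10.5% passed. BRCA2 was 40.6% higher (log2 fold change 0.49, SE 0.0667, adjusted p = 6.47e-06) and was called in all 9 fits that left out 1 library. ATM was 39.0% higher (0.48, SE 0.0950, adjusted p = 0.000941), ATR 25.05% higher (0.32, SE 0.0638, adjusted p = 0.000851) and BRCA1 22.9% higher (0.30, SE 0.0621, adjusted p = 0.00141). The 3 libraries of LIM1215-R2 were above the 3 of LIM1215-R1 for all 4 genes, and also for FANCD2, which did not pass. The share of all genes without overlap was not counted. The fold changes of the other 5 genes were between 0.04 and 0.14 and did not pass, so all 9 were above 0, as were 49.3% of all genes tested. The 9 transcripts have a GC content of 36.2% (BRCA2) to 44.2% (FANCD2). Among genes averaging 10 or more counts, 72.2% of those under 40% GC were above 0, and 59.3% of those at 40% to 45%. The median of the 9 genes was 0.14 and that of all genes -0.0011. The highest value was 0.49, so 0 of 9 reached a log2 fold change of 1.5, a limit that 0.764% of all genes passed together with the adjusted p.

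Leaving out 1 library ended some of these calls. That of BRCA1 was lost without LIM1215-R1 replicate 2 (adjusted p = 0.0116) or without LIM1215-R2 replicates 1 (0.0152) or 2 (0.0181). That of ATM was lost without LIM1215-R1 replicate 3 (0.0136) or LIM1215-R2 replicate 1 (0.021), and that of ATR without LIM1215-R1 replicate 3 (0.0134) or LIM1215-R2 replicates 1 (0.0102) or 2 (0.019). With 1 library left out, 1 to 4 of the 9 genes were called.

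**Figure D2:**
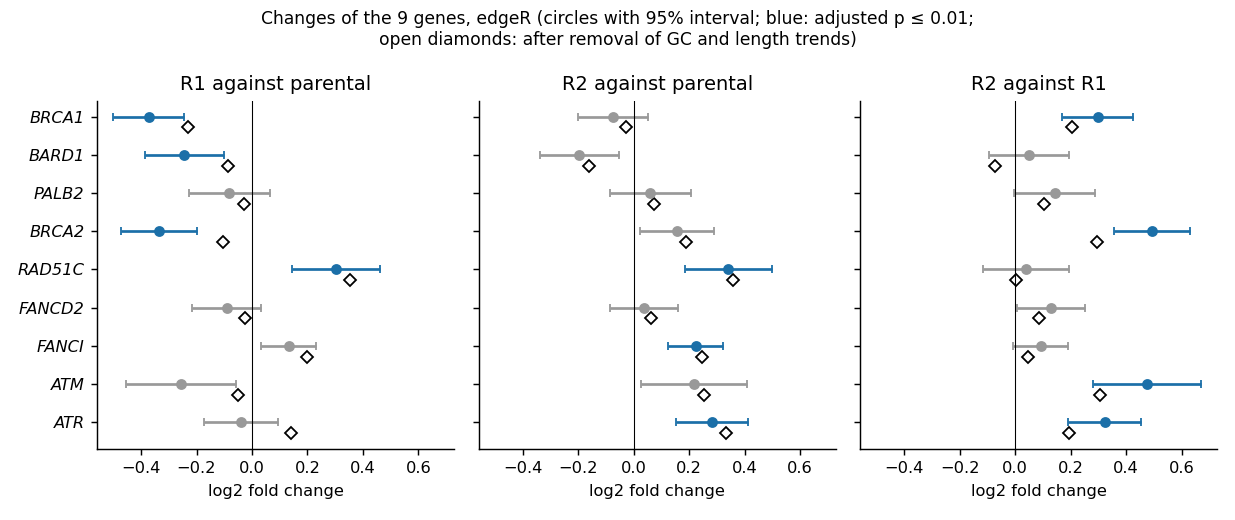
Log2 fold changes of the 9 genes in the 3 comparisons, with 95% intervals from edgeR (blue, adjusted p of at most 0.01). Open diamonds are the values after trends of every library on GC content and length were taken out, where BRCA2 in LIM1215-R1 moves from -0.33 to -0.11 and the 4 genes called between the resistant lines stay above 0.

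The 4 genes that were higher in LIM1215-R2 than LIM1215-R1 have the 4 longest transcripts of the 9, with 7088 bases for BRCA1, 8158 for ATR, 11954 for BRCA2 and 12915 for ATM, while the others have 2562 to 5478 bases. A trend of the same direction ran through all genes averaging 10 or more counts. The median log2 fold change between the resistant lines was -0.08 in 3594 genes with transcripts under 2000 bases, 0.04 in 2519 genes of 4000 to 6000 bases and 0.13 in 517 genes of at least 10000 bases. LIM1215-R1 against parental cells gave the opposite slope, with medians of 0.05, -0.05 and -0.15 in these bins, and LIM1215-R2 against parental cells gave -0.02, 0.00 and -0.01. Among genes averaging 10 or more counts, 1441 others had a transcript at least as long as that of BRCA1. Their median between the resistant lines was 0.11, with 222 called higher and 60 called lower. Hence these long transcripts passed more often, at 19.6%, than transcripts under 2000 bases with the same count filter, at 7.37%. Of the 6135 genes of like abundance to the 9, 10.5% passed. The 7.16% of all genes also covers genes with fewer counts and is not a matched share.

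When trends of every library on GC content and length were removed, the 4 genes kept their calls between the resistant lines with smaller differences. BRCA2 and ATM were then at 0.30 each (adjusted p = 8.86e-06 and 0.00176), BRCA1 at 0.21 (0.000434) and ATR at 0.19 (0.00167). Against parental cells, BRCA1 in LIM1215-R1 kept its call at -0.23 (adjusted p = 1.5e-05). The calls of BRCA2 and BARD1 in LIM1215-R1 were lost, as given above, and FANCI in LIM1215-R1 passed (0.20, adjusted p = 1.65e-05). ATR in LIM1215-R1 turned to 0.14 without passing (adjusted p = 0.0129). It passed when the replicate number was added as a block (0.14, adjusted p = 0.00727). In LIM1215-R2, RAD51C, FANCI and ATR kept their calls, and BRCA2 (0.19, adjusted p = 0.000887) and ATM (0.25, adjusted p = 0.00261) passed in addition. RAD51C, with the shortest transcript, was at 0.35 and 0.36 in the resistant lines. Whether the trend on length arose in the cells or in library preparation was not tested.

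**Figure D3:**
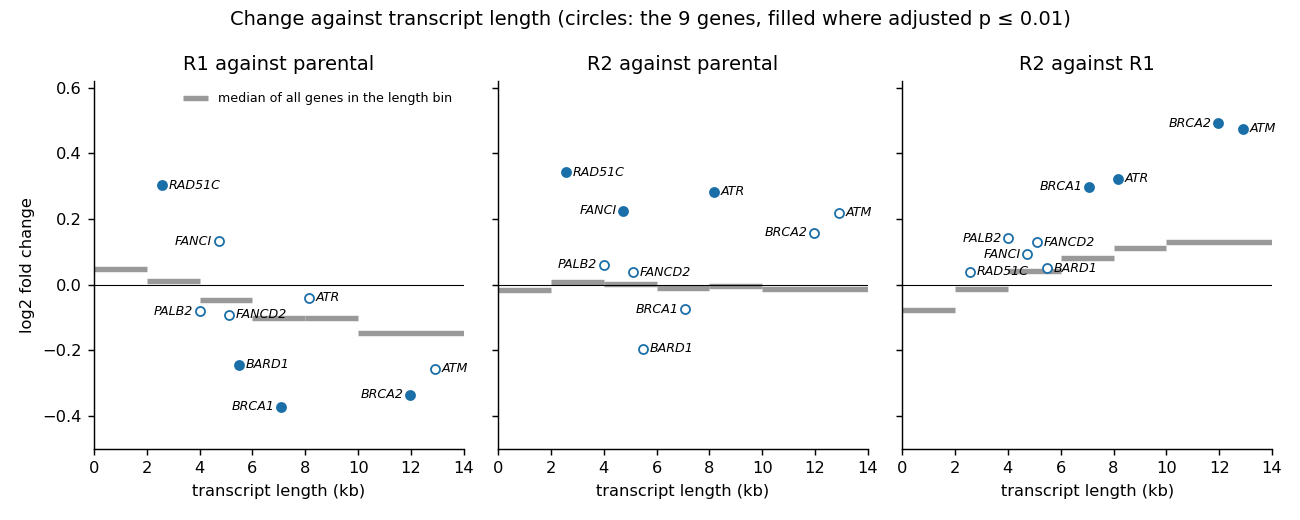
Log2 fold change of the 9 genes (circles, filled where the adjusted p is at most 0.01) against transcript length in kilobases, with gray segments for the median of all genes in each length bin, of which the last is open at its upper end. Between the resistant lines the medians climb from -0.08 to 0.13 and the 4 longest of the 9 genes lie above the segment of their bin.

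Ratios of counts within a library do not depend on the scaling between libraries. The ratio of BRCA1 to its partner BARD1 was 2.17 to 2.31 in parental cells, 2.04 to 2.09 in LIM1215-R1 and 2.40 to 2.54 in LIM1215-R2, without overlap between lines. BRCA2 over PALB2 was 1.80 to 1.95 in parental cells, 1.52 to 1.66 in LIM1215-R1 and 1.94 to 2.14 in LIM1215-R2, where only parental cells and LIM1215-R2 overlapped. FANCI over FANCD2 was 2.87 to 3.07 in parental cells and higher in both resistant lines, at 3.23 to 3.76 in LIM1215-R1 and 3.21 to 3.46 in LIM1215-R2. The ratio of ATR to ATM overlapped between all lines, with 1.82 to 2.42 in parental cells, 2.31 to 2.42 in LIM1215-R1 and 1.99 to 2.38 in LIM1215-R2. Of these 5 ratios the widest shift was that of BRCA1 over RAD51C, from 4.82 to 5.69 in parental cells to 3.12 to 3.49 in LIM1215-R1 and 3.66 to 4.197 in LIM1215-R2. FANCI and FANCD2 are close in transcript length, at 4733 and 5096 bases. The genes of the other ratios differ more in length, so those ratios can carry the trend described above.

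**Figure D4:**
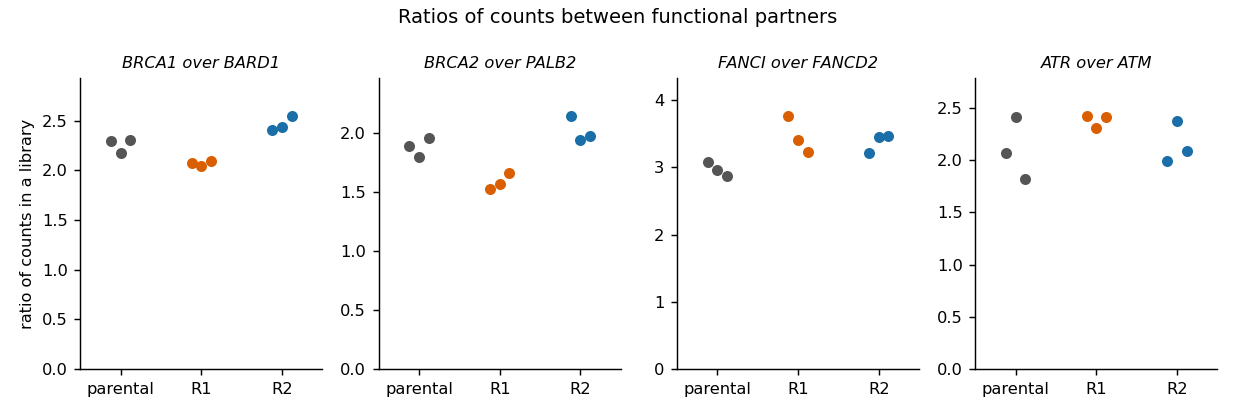
Ratio of counts between partner genes in each library (1 point per library, axes from 0). BRCA1 over BARD1 separates all 3 lines, and FANCI over FANCD2 separates both resistant lines from parental cells.

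The wider pathway was described by 5 lists with 88 genes tested of 89, none of them among the 9 genes. In LIM1215-R1, 2 of the 88 genes were higher and 20 lower than in parental cells (25%, against 27.3% of all genes), with a median log2 fold change of -0.11. In LIM1215-R2, 10 were higher and 8 lower (20.5%, against 23.8% of all genes), with a median of -0.01, and this balance was 10 to 5 with DESeq2's Wald test, 6 to 8 with total counts and 10 to 12 with GC and length trends removed. In the contrast of the resistant lines, 7 were called and all were higher in LIM1215-R2 (7.95%, against 7.16% of all genes), with a median of 0.10. DESeq2's Wald test called 7 higher and 0 lower there, against 609 higher and 724 lower of 14287 genes. At an unadjusted p under 0.05, 28 were higher and 0 lower, a count for which the share of all genes was not taken. The shares called were therefore close to those of all genes, which also cover genes with fewer counts. They were below the 39.8%, 33.3% and 10.5% of the 6135 genes of like abundance to the 9. A share matched to the counts of the 88 genes was not taken. The direction of the calls was uneven in LIM1215-R1 and in the contrast of the resistant lines. Without 1 library, 14 to 22 of the 88 genes were called in LIM1215-R1, 8 to 18 in LIM1215-R2 and 2 to 8 in the contrast of the resistant lines, with the lowest count of the last without LIM1215-R1 replicate 2 or LIM1215-R2 replicates 1 or 2, and 3 without LIM1215-R1 replicate 3. The counts for LIM1215-R2 were 8 to 10 without parental replicates 1 or 3 or LIM1215-R2 replicates 1 or 2, and that in LIM1215-R1 was 14 without parental replicate 1.

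In the order LIM1215-R1, LIM1215-R2 and the contrast of both, the median log2 fold changes were -0.11, -0.08 and 0.09 for genes of strand exchange and its mediators. They were -0.15, -0.0025 and 0.10 for end resection and BRCA1 complexes and -0.24, -0.0081 and 0.17 for joint molecule processing. The Fanconi list had -0.03, 0.08 and 0.15, and ATM and ATR signaling had -0.10, -0.0040 and 0.07. Lists outside the pathway had 0.06, 0.11 and 0.05 (end joining) and 0.0060, -0.02 and 0.02 (proliferation). The shares called, in the same order, were 18.2%, 31.8% and 9.09% for strand exchange and 41.7%, 16.7% and 25% for end resection. Joint molecule processing had 30.8%, 7.69% and 7.69%, the Fanconi list 26.3%, 10.5% and 0%, and ATM and ATR signaling 18.2%, 27.3% and 4.55%. All genes tested had 27.3%, 23.8% and 7.16%, and the 6135 genes of like abundance to the 9 had 39.8%, 33.3% and 10.5%.

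Among 22 genes of strand exchange and its mediators, 4 were called in LIM1215-R1 and all 4 fell. They included the ATPase FIGNL1 (-0.64, from 89.6 CPM ± 7.46 to 57.7 ± 2.17, n = 3), RAD52 (-0.54), which anneals single strands, and the translocase RAD54B (-0.27). In LIM1215-R2, 4 of the 22 rose and 3 fell. ZSWIM7, a subunit of the Shu complex, fell by 0.50 on the log2 scale, FIGNL1 by 0.36 and RAD52 by 0.35, while the helicases MCM8 (0.31) and MCM9 (0.29), the translocase RAD54L (0.22) and XRCC3 (0.22), a partner of RAD51C, rose. FIGNL1 (0.28) and MCM8 (0.27) were higher in LIM1215-R2 than LIM1215-R1.

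Of 12 genes of end resection and BRCA1 complexes, 4 fell and 1 rose in LIM1215-R1. The nuclease MRE11 (-0.46) and its partner RAD50 (-0.22) fell, as did ABRAXAS1 (-0.41) and BRCC3 (-0.26) of the BRCA1-A complex, and the exonuclease EXO1 rose (0.19). In LIM1215-R2, ABRAXAS1 fell by 0.33 on the log2 scale and EXO1 rose by 0.21. MRE11 (0.37), RAD50 (0.37) and the BRCA1-bound helicase BRIP1 (0.36) were the 3 genes of this list that were higher in LIM1215-R2 than LIM1215-R1. In joint molecule processing, 4 of 13 genes were called in LIM1215-R1 and all 4 fell, namely RMI2 (-0.68) and RMI1 (-0.25) of the BLM complex, the helicase RECQL5 (-0.45) and the resolvase GEN1 (-0.41). RMI2 also fell in LIM1215-R2 (-0.53), and GEN1 was higher there than in LIM1215-R1 (0.49).

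Of 19 Fanconi core and crosslink repair genes, 4 fell in LIM1215-R1 and 1 rose. FANCL (-0.45), the ubiquitin ligase for FANCD2 and FANCI, FANCM (-0.33), FANCC (-0.32) and FANCF (-0.28) fell. UBE2T, the ubiquitin-conjugating enzyme that works with FANCL, rose by 0.33, and it rose by 0.35 in LIM1215-R2 beside the ligase RFWD3 (0.17). In the contrast of the resistant lines, 0 genes of this list passed edgeR's test and 0 passed DESeq2's Wald test. At an unadjusted p under 0.05, 8 were higher in LIM1215-R2 and 0 lower, again without a share of all genes to set beside it. In ATM and ATR signaling, 4 of 22 genes were called in LIM1215-R1 and all 4 fell, namely the ATR activator ETAA1 (-0.49), RNF168 (-0.34), the ATM target CHEK2 (-0.30) and the acetyltransferase KAT5 (-0.30). In LIM1215-R2, KAT5 (-0.40), CHEK2 (-0.33) and RNF168 (-0.27) fell, and TP53BP1 (0.26), TTI1 (0.24) and CLSPN (0.21) rose. CLSPN, the adaptor for CHEK1 activation by ATR, was also higher in LIM1215-R2 than LIM1215-R1 (0.24).

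**Figure D5:**
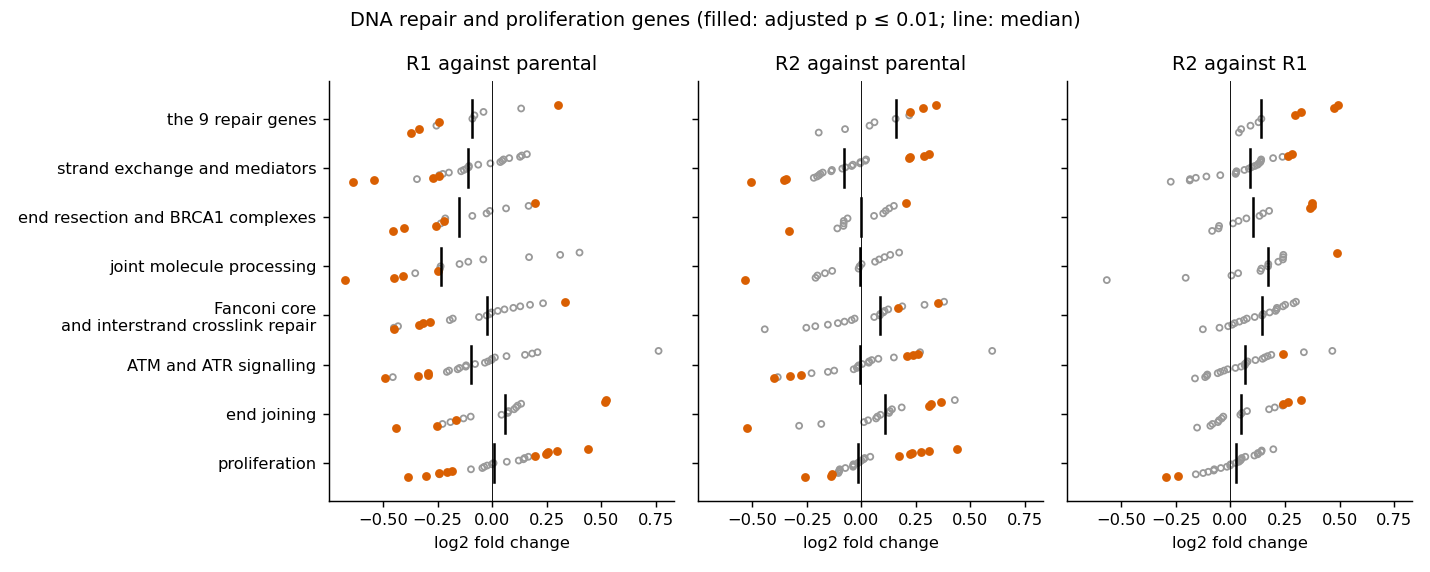
Log2 fold change of every tested gene in the 9 repair genes, the 5 pathway lists, end joining and proliferation (1 point per gene, orange where the adjusted p is at most 0.01, black bar for the list's median). In LIM1215-R1 the called genes of the 5 pathway lists lie mostly left of 0 (20 of 22), and between the resistant lines all 7 lie right of 0.

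End joining, which competes with recombination for the same ends, was set beside it with 16 genes, of which 31.2% were called in LIM1215-R1, 25% in LIM1215-R2 and 18.8% between the resistant lines, against 27.3%, 23.8% and 7.16% of all genes. In LIM1215-R1, 2 rose and 3 fell. SHLD1 (0.52) and MAD2L2 (0.52), both of the shieldin complex that limits resection, rose in LIM1215-R1. NHEJ1 (-0.44), RIF1 (-0.25) and PRKDC (-0.17), the kinase of classical end joining, fell there. In LIM1215-R2, 3 rose and 1 fell, with MAD2L2 (0.36), SHLD2 (0.32) and the ligase LIG4 (0.31) higher and NHEJ1 (-0.53) lower. With GC and length trends removed, 7 were called in LIM1215-R2. POLQ (0.32), the polymerase of microhomology-mediated joining, RIF1 (0.26) and PRKDC (0.24) were higher in LIM1215-R2 than LIM1215-R1.

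Recombination genes are expressed with the cell cycle, so 23 proliferation genes were examined. In LIM1215-R1, 6 rose and 5 fell (47.8%, against 27.3% of all genes), and in LIM1215-R2, 6 rose and 3 fell (39.1%, against 23.8%). Genes of like abundance to the 9 passed at 39.8% and 33.3%, and no share matched to the counts of this list was taken. With GC and length trends removed, 18 were called in LIM1215-R1, where 3114 of the 19102 genes tested were higher and 3037 lower. The values that follow are without that removal. MKI67 rose by 0.20 and 0.31 on the log2 scale in the resistant lines, TOP2A by 0.30 and 0.22 and CDK1 by 0.25 and 0.23. RRM2, a ribonucleotide reductase subunit, rose by 0.44 in each, and the replicative helicase subunits MCM5 (-0.38 and -0.26), MCM3 (-0.21 and -0.14) and MCM4 (-0.18 and -0.13) fell in both. MCM6 (-0.24) and E2F2 (-0.30) fell and AURKA (0.26) and PLK1 (0.25) rose in LIM1215-R1, while CCNE2 (0.27) and BUB1 (0.17) rose in LIM1215-R2. PCNA (0.01 and -0.04), E2F1 (-0.02 and 0.02) and CCNB1 (0.14 and -0.02) did not pass. The summed level of the list was 5366 to 5432 CPM in parental cells, 5548 to 5715 CPM in LIM1215-R1 and 5617 to 5710 CPM in LIM1215-R2. Between the resistant lines, the mitotic kinases AURKA (-0.30) and PLK1 (-0.24) were lower in LIM1215-R2, the only called genes of the list in edgeR's test. The part of proliferation in the changes of the 9 genes was not tested. Their own summed level was 601 to 665 CPM in parental cells, 576 to 630 CPM in LIM1215-R1 and 677 to 709 CPM in LIM1215-R2, the last without overlap with the other lines.

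For 6 of the 9 genes, another gene starts on the opposite strand within 1000 bases. ATM and NPAT, a regulator of histone gene transcription, start 429 bases apart. NPAT was at 39.1, 34.7 and 33.8 CPM in parental cells, at 33.2, 26.6 and 28.3 CPM in LIM1215-R1 and at 36.7, 36.9 and 33.1 CPM in LIM1215-R2. It fell in LIM1215-R1 (-0.29, SE 0.0835, adjusted p = 0.00773) and was 0.28 higher in LIM1215-R2 than LIM1215-R1 without passing (adjusted p = 0.0277). RAD51C and TEX14 start 528 bases apart. TEX14 had 0, 3 and 4 counts in parental cells, 16, 5 and 13 in LIM1215-R1 and 9, 13 and 12 in LIM1215-R2, and rose in both lines (log2 fold change 2.26, adjusted p = 0.00519, and 2.27, adjusted p = 0.00578). All 6 resistant libraries had more TEX14 counts than any parental library, but the level was below 1 CPM throughout. NBR2 beside BRCA1 and DCTN5 beside PALB2 did not pass in any comparison. SNHG31 beside BARD1 and ZAR1L beside BRCA2 had 6 and 4 counts in all libraries and were not tested.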

How the data were processed

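Poly(A) RNA of 9 untreated libraries (3 lines, 3 libraries each) was sequenced from a stranded mRNA kit. The deposited files hold raw counts per gene symbol: the authors aligned paired-end reads to hg38 with STAR and counted reads in the reverse orientation with HTSeq 0.9.1, and the gene annotation is not given in the sources used here. Groups and replicate numbers came from the sample titles.

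Counts were tested in R 4.3.3 with edgeR 4.0.16 (TMM factors, glmQLFit and glmQLFTest, 1 model with the 3 lines as groups) on the 19102 of 58920 genes that had 10 or more counts summed over the libraries. CPM used TMM-scaled library sizes. A gene was called at an adjusted p of at most 0.01 (Benjamini-Hochberg over all genes tested), and the study's limit on the log2 fold change of 1.5 was applied separately. Totals of 13737400 to 18725000 counts put 3 counts at 0.158 to 0.217 CPM, which covers counting error only. Alternatives were no or a stricter filter, DESeq2 1.42.0 size factors and Wald test (with and without lfcShrink), total counts, the 6 libraries compared, the replicate number as a block, offsets for GC content and length (GENCODE 44), other thresholds and each library left out.

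The 9 genes and the lists were chosen with earlier results of these data known. Named genes were the 9, up to 4 called genes of each list per comparison with the largest absolute log2 fold change, 6 fixed proliferation genes (MKI67, PCNA, TOP2A, CCNB1, CDK1 and E2F1), genes sharing a promoter region, and the 3 genes most alike to each called one. Other genes named for a list count were chosen after their values were seen, and 1 gene that the rule names is not reported here. Promoters and gene starts came from RefSeq tables (GRCh38.p14).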

Additional observations from a re-analysis of the deposited data

Results flagged for a closer look

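The changes of the resistant lines from parental cells differed for 4 of the 9 genes by the contrast between the lines in edgeR. The log2 fold change of LIM1215-R2 against LIM1215-R1 was 0.49 for BRCA2, 0.48 for ATM, 0.32 for ATR and 0.30 for BRCA1. These are the 4 longest transcripts of the 9, and all 4 calls held at 0.30, 0.30, 0.19 and 0.21 when trends of every library on GC content and length were removed. Only BRCA2 was called in all 9 fits that left out 1 library, and BRCA1, ATM and ATR were each lost in 2 or 3 of them.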

How the results depend on the processing

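Of the values for single genes among the 9, 250 kept their direction and side of the threshold under alternatives other than leaving out a library, 9 gained a call, 7 lost one and 4 changed sign. With 1 library left out these numbers were 224, 2, 16 and 1. ATR in LIM1215-R1 against parental cells changed sign with GC and length trends removed (0.14, adjusted p = 0.0129). With the block added it also passed as higher (0.14, adjusted p = 0.00727). BARD1 between the resistant lines changed sign in these fits (-0.073 and -0.074) and without LIM1215-R1 replicate 2 (-0.011). Its range with 1 library left out was -0.011 to 0.097. The called genes among the 9 numbered 2 to 5 in LIM1215-R1, 2 to 4 in LIM1215-R2 and 1 to 4 between the resistant lines when 1 library was left out, with 0 past the study's limit throughout. For the 88 pathway genes these ranges, added after seeing the data, were 14 to 22, 8 to 18 and 2 to 8, and 4 were called between the resistant lines at 10 counts in every library. BARD1 in LIM1215-R1 lost its call with DESeq2 (0.0121) and with the 6 libraries alone (0.0146). ATM in LIM1215-R1 passed with no filter (0.00802).

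Whether replicate numbers pair the libraries was not settled. Deviations of same-numbered libraries correlated at -0.106 to 0.274, against -0.265 to 0.191 for different numbers in different lines. Of 18 cases, 7 were closest to their own number. Over all genes, the number as a block moved the calls between the resistant lines from 648 higher and 720 lower to 1026 and 1018. With the number as a block, 5, 3 and 4 of the 9 genes were called in LIM1215-R1, LIM1215-R2 and between the lines, ATM in LIM1215-R1 being added (0.00839). The block moved joint molecule processing to 7 in LIM1215-R1 and 2 between the lines, and ATM and ATR signaling to 2 between the lines. With GC and length trends removed, 5 of the 9 were called in LIM1215-R2, and 6 with the block as well. In LIM1215-R1 these numbers were 3 and 4.

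List counts moved by over 1.5 times as follows. In LIM1215-R1 the strand exchange list (4) gave 7 with total counts and with block, GC and length, and 2 with DESeq2, lfcShrink or the 6 libraries, where the Fanconi list (5) gave 3. ATM and ATR signaling (4) gave 8 and proliferation (11) gave 18 in both GC and length fits. In LIM1215-R2 the Fanconi list (2) gave 1 with total counts and 4 with block, GC and length, and end resection (2) gave 1 with DESeq2 and lfcShrink and 4 with block, GC and length. There joint molecule processing (1) gave 3 and end joining (4) gave 7 in both GC and length fits. Between the lines, end resection (3) gave 1 at 10 counts in every library and with GC and length removed. ATM and ATR signaling (1) gave 0 at 10 counts in every library and with the 6 libraries, and 3 with block, GC and length, where the Fanconi list (0) gave 1. Proliferation (2) gave 7 with GC and length removed and 8 with the block added. The causes of these shifts were not tested. The ratio of the highest to the lowest level per kilobase fell from 12.8 to 10.3 with exons merged.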

Other observations

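Over the 9 libraries, the log2 CPM of 13411 genes averaging 10 or more counts was set against each called gene, as a description in which all points share the 3 lines and their scaling. Most like BRCA1 were CEP350 (r = 0.990), ZFYVE16 (0.989) and SCAF11 (0.988), and 328 genes reached 0.9. BRCA2 was closest to SPG11 (0.990), LZTFL1 (0.988) and DMXL1 (0.985), and BARD1 to C16orf87 (0.983), IQGAP1 (0.977) and CCDC117 (0.974). RAD51C was closest to GSAP (0.983), LRRC42 (0.982) and AACSP1 (0.982), with 848 genes at 0.9 or more, the most among the 7 genes. FANCI was closest to HJURP (0.974), ERCC6 (0.974) and SELENOS (0.971). ATR was closest to ZNF215 (0.982), SLF2 (0.977) and SPATA13 (0.971), and ATM, with 43 genes at 0.9, to ZNF280D (0.975), LEMD3 (0.967) and FBXW2 (0.953). Among the 9 genes themselves, BRCA2 and ATM were each other's closest (0.866), as were RAD51C and FANCI (0.858).

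The tested genes averaging 10 or more counts that start within 1000000 bases of each of the 9 were listed for the same comparisons. TEX14 beside RAD51C, with 75 counts in all libraries, fell below this filter. Around BRCA1, 47 genes had a median log2 fold change in LIM1215-R1 of 0.08, against -0.37 for BRCA1 itself. Around RAD51C, 19 genes had medians of -0.03 in LIM1215-R1 and 0.01 in LIM1215-R2 against 0.30 and 0.34 for RAD51C. Around ATM, 9 genes had a median of 0.15 between the resistant lines against 0.48 for ATM, and around ATR, 8 genes had 0.04 against 0.32. Only 3 such genes lay around BRCA2, with a median of -0.49 in LIM1215-R1 (2 called lower) against -0.33 for BRCA2. In LIM1215-R2 their median was -0.39 against 0.16 for BRCA2, and between the resistant lines 0.16 against 0.49. The 2 around BARD1 had medians of 0.42 in LIM1215-R1 and 0.11 in LIM1215-R2, against -0.24 and -0.20 for BARD1.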
